A study of Hordeum vulgare with 22 samples.

Results

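A set of 3 barley genes annotated as epidermal patterning factors were followed through early inflorescence development in the cultivar Bowman and in the many-noded dwarf line mnd1.a. The genes were chosen by their annotation and on the counts described here, so their own levels and line differences are given as a description without a test. They are HORVU2Hr1G116010 and HORVU2Hr1G116030, both annotated epidermal patterning factor 1 (EPF1), and HORVU3Hr1G093110, annotated EPIDERMAL PATTERNING FACTOR-like protein 9 (EPFL9). They make up 3 of the 24318 genes in the expression table, and 3 of the 7 genes whose annotation names this family.

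Epidermal patterning factors are small, secreted, cysteine-rich peptides that set where stomata form in the plant epidermis. In Arabidopsis, EPF1 is made by cells of the stomatal lineage and acts through receptor kinases of the ERECTA family and the co-receptor TOO MANY MOUTHS to keep neighbouring cells from forming stomata. EPFL9, also called STOMAGEN, is made by the mesophyll in Arabidopsis and promotes stomata by competing for the same receptors. Below the receptors, a MAP kinase cascade restrains a heterodimer of basic helix-loop-helix factors, in which ICE1 (SCREAM) is the shared partner of SPEECHLESS, MUTE and FAMA.

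Total RNA was sequenced from enriched inflorescence material of plants grown in long days. One line was wild-type Bowman; the other carried the mnd1.a mutation (GSHO2038) in the Bowman background, so the lines share most of their genome. The Waddington scale orders spike development, and W2.0 marks the double ridge. At W2.0 each line had 3 libraries. At W3.5 Bowman had 4 and mnd1.a 3, and at W5.0 each line had 4. The labels do not say whether libraries of a group came from separate plants, so the spread between them may be partly technical. The material is bulk tissue that includes the base of the inflorescence and small leaves, so fewer cells of a type and less RNA per cell cannot be told apart.

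The 21 libraries held between 11436651 and 21596190 estimated counts. Genes were tested in 1 edgeR quasi-likelihood model over the 6 groups of line and stage, with a Benjamini-Hochberg adjusted p under 0.05 as the threshold. Levels are CPM (counts scaled to the library size) on the linear scale and differences are log2 fold changes with their standard errors (SE). MND1 (HORVU7Hr1G113480), the N-acetyltransferase-like gene for which the line is named, was lower in mnd1.a, with an edgeR log2 fold change of -2.38 ± 0.38 (SE) at W3.5 (adjusted p = 0.00141), of -1.33 ± 0.33 at W5.0 (adjusted p = 0.00653) and of -1.40 ± 0.38 at W2.0 (adjusted p = 0.115). MADS-box genes, taken by annotation as the inflorescence and flower list, were present in every library, with summed levels of 569 to 1393 CPM over 40 genes. Which of them mark inflorescence or flower was not determined.

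The EPF1 copies lie near the end of chromosome 2H. HORVU2Hr1G116010 spans positions 736621631 to 736622291 and HORVU2Hr1G116030 spans 736644200 to 736644860, as the deposited table gives them; the sources used here name no genome build. Both spans are 661 bp long, and the estimated counts of the copies were identical in 21 of 21 libraries. The pair is therefore 1 measurement: its reads cannot be assigned to either copy, and the levels below are the sum of both. EPFL9 lies on chromosome 3H at 640891989 to 640894135. Its span falls inside that of a pentatricopeptide repeat gene, HORVU3Hr1G093120, which starts at 640891988 and ends at 640901389. That gene had an edgeR log2 fold change of 0.10 ± 0.30 (SE) at W5.0 (adjusted p = 0.843). EPFL9 is the only one of the 3 genes for which the table lists a protein family (PF16851).

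EPF1, the inhibitor of stomatal formation in Arabidopsis, started at similar levels in both lines and then parted. At W2.0 the EPF1 pair stood at 2.30, 1.19 and 1.02 CPM in the Bowman libraries and at 2.08, 1.54 and 1.5 CPM in the mnd1.a libraries. The ranges of the lines overlapped at this first stage. At W3.5 the pair stood at 1.16, 0.200, 0.568 and 0.101 CPM in Bowman, and at 1.74, 0.692 and 1.24 CPM in mnd1.a. Bowman replicates 2 and 4 were the low libraries, Bowman replicate 1 lay within the mnd1.a range, and the groups overlapped. At W5.0 the pair stood at 0.158, 0.240, 0.271 and 0.153 CPM in Bowman and at 1.58, 1.35, 0.975 and 2.26 CPM in mnd1.a. At this last stage the groups did not overlap, and the lowest mnd1.a library lay above the highest Bowman library.

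The log2 difference of an EPF1 copy between mnd1.a and Bowman was 0.16 ± 0.53 (SE) at W2.0, then 1.09 ± 0.54 at W3.5 and finally 2.89 ± 0.57 at W5.0. The last value rests on few reads and on a single copy, which had 1.20 to 2.41 estimated counts in the Bowman W5.0 libraries, below the floor of 3 counts in 4 of 4, and 6.44 to 13.8 in the mnd1.a W5.0 libraries. Over both copies, the pair had 14.5 estimated counts over the 4 Bowman W5.0 libraries, between 2.41 and 4.82 per library, and 77.1 over the 4 mnd1.a W5.0 libraries. These summed Bowman counts lie around the floor, which corresponds to 0.129 to 0.253 CPM across the libraries. The ratio of the summed counts, scaled to library size, was 7.53 with an exact (Clopper-Pearson) 95% interval of 4.16 to 13.6 that covers counting error only. The interval pools the 4 libraries of each line and leaves out the spread between them. Since the genes were chosen on these counts, it is a description and not a test of the line difference.

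EPFL9, the promoter of stomatal formation in Arabidopsis, followed a like course and rested on more reads. At W2.0 it stood at 5.03, 5.75 and 4.61 CPM in Bowman and at 4.30, 4.21 and 3.57 CPM in mnd1.a. Every mnd1.a library lay below every Bowman library at this stage. At W3.5 it stood at 3.09, 1.14, 2.02 and 1.12 CPM in Bowman, again lowest in replicates 2 and 4, and at 3.75, 4.74 and 3.43 CPM in mnd1.a. At W5.0 it stood at 2.24, 0.652, 1.71 and 0.618 CPM in Bowman and at 3.18, 3.63, 3.20 and 5.63 CPM in mnd1.a. From W3.5 onwards every mnd1.a library lay above every Bowman library. The share of all tested genes in such an order was counted only at W5.0, where it was 17.9%. Nothing is read from the order of the libraries at W2.0 and W3.5. The log2 difference between the lines was -0.35 ± 0.38 (SE) at the first stage, 1.08 ± 0.37 at the second and 1.54 ± 0.36 at the last, which is a 2.91-fold higher level in mnd1.a. The counts behind these levels ran from 9.74 to 50.5 per library in Bowman W5.0 and from 38.5 to 68.5 in mnd1.a W5.0.

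**Figure D1:**
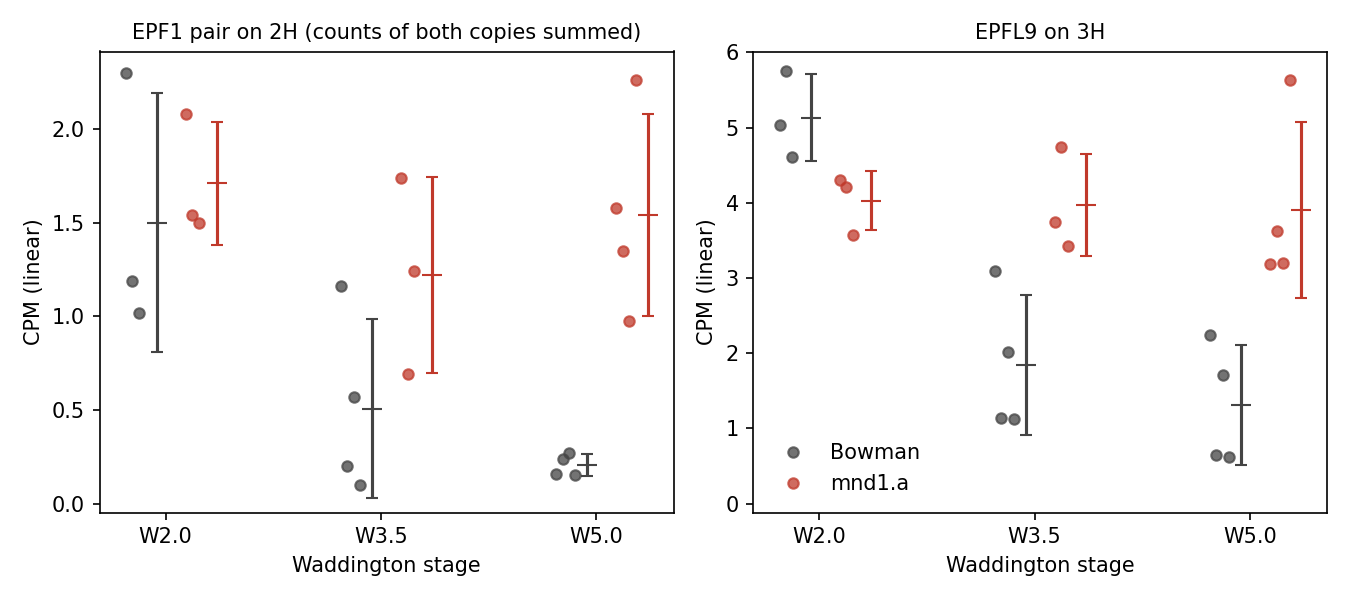
Level in CPM (linear axis) of the EPF1 pair on chromosome 2H, both copies summed, and of EPFL9 on chromosome 3H, by Waddington stage. Each point is 1 library, and the bars give mean ± SD of a group (Bowman n = 3, 4 and 4; mnd1.a n = 3, 3 and 4). The 4 Bowman W5.0 libraries of the EPF1 pair sit between 0.153 and 0.271 CPM, below the 4 mnd1.a libraries at 0.975 to 2.26 CPM.

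In the order of mean levels, the EPF1 pair was highest in mnd1.a W2.0 at 1.71 ± 0.327 CPM (SD, n = 3), followed by mnd1.a W5.0 at 1.54 ± 0.540 (n = 4), Bowman W2.0 at 1.5 ± 0.693 (n = 3) and mnd1.a W3.5 at 1.22 ± 0.523 (n = 3). Bowman W3.5 came next at 0.507 ± 0.479 (n = 4), and Bowman W5.0 was lowest at 0.206 ± 0.0593 (n = 4). Each group overlapped in range with the next one down this order. For EPFL9 the order was Bowman W2.0 at 5.13 ± 0.578 CPM (SD, n = 3), mnd1.a W2.0 at 4.03 ± 0.395 (n = 3), mnd1.a W3.5 at 3.97 ± 0.681 (n = 3), mnd1.a W5.0 at 3.91 ± 1.17 (n = 4), Bowman W3.5 at 1.84 ± 0.933 (n = 4) and Bowman W5.0 at 1.31 ± 0.804 (n = 4). The 3 mnd1.a groups overlapped one another, as did the Bowman W3.5 and W5.0 groups. Between neighbours in this order, ranges did not overlap for Bowman W2.0 and mnd1.a W2.0 or for mnd1.a W5.0 and Bowman W3.5.

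Read along the stages, both genes were lower in the later Bowman groups and stayed within the spread of the libraries in mnd1.a. In Bowman an EPF1 copy changed by -1.45 ± 0.53 (log2, SE) from W2.0 to W3.5, by -1.42 ± 0.62 from W3.5 to W5.0 and by -2.87 ± 0.59 over the whole span. The corresponding changes in mnd1.a were -0.51 ± 0.54, 0.37 ± 0.51 and -0.14 ± 0.50. EPFL9 changed by -1.45 ± 0.37, -0.48 ± 0.37 and -1.93 ± 0.37 in Bowman over the same steps, and by -0.02 ± 0.39, -0.02 ± 0.36 and -0.04 ± 0.36 in mnd1.a. The lines therefore differed in their change from W2.0 to W5.0 by 2.73 ± 0.78 (log2, SE) for an EPF1 copy and by 1.89 ± 0.52 for EPFL9. These comparisons share their control groups and are set side by side only.

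Against the threshold applied to all 21132 tested genes, 3 of the 3 genes, which are 2 measurements since the EPF1 copies share their counts, were higher in mnd1.a at W5.0, where 15.0% of tested genes were higher and 15.2% lower. None of the 3 passed at W2.0, where 0.497% of genes were higher and 0.293% lower, or at W3.5, where 1.77% were higher and 2.13% lower. At W5.0 every mnd1.a library lay above every Bowman library for 3 of the 3 genes and for 17.9% of all tested genes. In Bowman, 3 of 3 were lower at W3.5 than at W2.0 (15.2% of genes) and at W5.0 than at W2.0 (27.1%), and 0 of 3 were lower at W5.0 than at W3.5 (3.70%). Without Bowman W3.5 replicates 2 and 4, 0 of 3 were lower at W3.5 than at W2.0, and the EPF1 copies passed as lower at W5.0 than at W3.5. In mnd1.a, 0 of 3 were lower at W3.5 than at W2.0 (2.19%), at W5.0 than at W3.5 (5.01%) or at W5.0 than at W2.0 (10.4%). The line-by-stage difference was positive and past the threshold for 3 of 3 genes from W2.0 to W5.0 (5.09% of genes), and for 0 of 3 from W2.0 to W3.5 (0.0568%) or from W3.5 to W5.0 (0.733%). The choice of the genes used these contrasts, so nothing is read from the counts. In the sample titles, the library codes of both lines begin alike at the first and the second stage. At W5.0 they begin differently in each line, so that code prefix and line cannot be told apart there. Stage and code prefix also partly coincide, so the steps between stages and the line-by-stage differences share this limit.

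The authors' deposited table gives log2 fold changes between the lines for the same genes. For an EPF1 copy the authors' deposited table lists 0.26, 1.37 and 2.59 for the stages in order. For EPFL9 the authors' deposited table lists -0.35, 1.11 and 1.63.

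The other 4 genes of the family had too few counts to enter the test. HORVU7Hr1G005680 and HORVU7Hr1G057720, both annotated EPFL9 and both carrying PF16851, lie far apart on chromosome 7H at 7598358 to 7598811 and at 253678072 to 253678442, and had identical estimated counts in every library. Summed, this pair stood at 0.707, 1.37 and 1.98 CPM in Bowman W2.0, at 0.464, 0.0590, 0.457 and 0.290 CPM in Bowman W3.5 and at 0.294, 0.149, 0.388 and 0.222 CPM in Bowman W5.0. In mnd1.a it stood at 0.760, 0.467 and 0.729 CPM at W2.0, at 0.735, 0.834 and 0.511 CPM at W3.5 and at 0.576, 0.807, 0.529 and 0.564 CPM at W5.0. The lines overlapped at W2.0, while at W3.5 and W5.0 each mnd1.a library lay above each Bowman library. At W5.0 that order held for 17.9% of all tested genes, and at W3.5 its share was not counted. In a fit with no filter on low counts the edgeR log2 difference of each 7H copy was -1.0 ± 0.57 (SE) at W2.0, then 0.93 ± 0.60 at W3.5, and 1.09 ± 0.59 at W5.0. None of these passed the threshold in edgeR (adjusted p = 0.677, 0.409 and 0.181 in turn).

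HORVU2Hr1G116040, another gene annotated EPF1, lies beside the pair on chromosome 2H at 736733373 to 736733820. It had no count in any of the 8 Bowman libraries of W3.5 and W5.0, which allows up to 3 counts in each. In mnd1.a W5.0 it stood at 0.681 and 0.388 CPM in replicates 2 and 3 and had no count in replicates 1 and 4, and in mnd1.a W3.5 it stood at 0.208 and 0.347 CPM in replicates 1 and 2 and had none in replicate 3. At W2.0 it was seen in 2 of 3 libraries of each line. With no filter on low counts its edgeR adjusted p was 0.0551 at W5.0, short of the threshold. The fourth EPF1 gene, HORVU2Hr1G080030 at 579098000 to 579098580 on chromosome 2H, lies inside the span of a receptor-like protein kinase gene (HORVU2Hr1G080020). It had at most 4.79 estimated counts in a library, and its edgeR adjusted p at W5.0 without the filter was 0.292. Neither gene gave a line difference that was detectable at this depth.

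**Figure D2:**
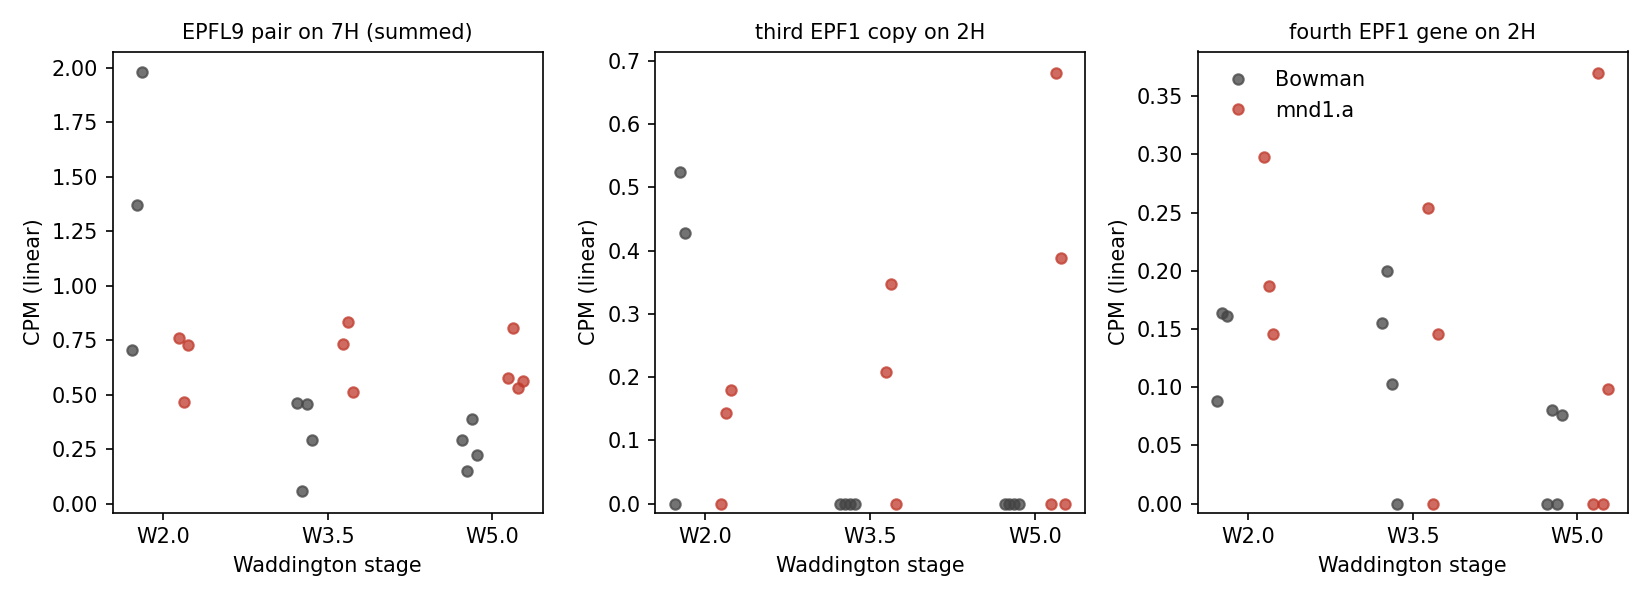
Level in CPM (linear axis) of the 4 family members with too few counts for the test, by Waddington stage; each point is 1 library of Bowman or mnd1.a. The EPFL9 pair on chromosome 7H lies at 0.149 to 0.388 CPM in Bowman W5.0 and at 0.529 to 0.807 CPM in mnd1.a W5.0, and the further EPF1 copy on chromosome 2H has no count in the 8 Bowman libraries of W3.5 and W5.0.

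Downstream of the peptides, the genes annotated as ICE1 were higher in mnd1.a at W5.0. ICE1 is the bHLH partner that the stage-specific stomatal factors require in Arabidopsis, where it also acts in the cold response. All 3 genes with this annotation were tested; 0 passed at W2.0, 2 were higher at W3.5 (1.77% of all tested genes) and 3 were higher at W5.0 (15.0%), with a median log2 fold change of 0.62 at W5.0 against -0.01 over all tested genes. HORVU4Hr1G008480 differed most. It stood at 1.95, 0.721, 2.58 and 0.763 CPM in Bowman W5.0 and at 6.32, 8.33, 9.0 and 5.50 CPM in mnd1.a W5.0, without overlap. Its edgeR log2 fold change was -0.10 ± 0.40 (SE) at W2.0 (adjusted p = 0.979), 1.92 ± 0.39 at W3.5 (adjusted p = 0.00910) and 2.25 ± 0.37 at W5.0 (adjusted p = 0.000295). Its line difference grew from W2.0 to W5.0 by 2.35 ± 0.54 (edgeR adjusted p = 0.0120).

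HORVU7Hr1G074490, another ICE1 gene, stood at 34.2, 27.1, 35.8 and 31.1 CPM in Bowman W5.0 and at 46.1, 53, 51.8 and 46.6 CPM in mnd1.a W5.0. The difference was smaller than that of the 4H gene and again without overlap, with an edgeR log2 fold change of 0.62 ± 0.12 (SE, adjusted p = 0.00127). HORVU3Hr1G096460 had an edgeR log2 fold change of 0.51 ± 0.19 at W5.0 with an adjusted p of 0.0487, a call that was lost under 17 of 30 alternative settings. The 2 calls at W3.5 were lost when Bowman W3.5 replicates 2 and 4, the libraries in which the EPF genes were low, were left out together. No gene annotated as SPEECHLESS, MUTE or FAMA was matched by the words searched, so the partners of ICE1 are not analysed here; the same holds for the ERECTA and TOO MANY MOUTHS receptors and the protease SDD1.

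The MAP kinase list took in genes whose annotation names a mitogen-activated protein kinase, and these serve many pathways besides the stomatal one. Which of them act below the EPF receptors was not determined. The list held 21 genes, all tested. None passed at W2.0 or W3.5, and at W5.0 5 were lower in mnd1.a (15.2% of all tested genes were) and 0 higher (15.0%), with a median log2 fold change of -0.32 against -0.01 over all tested genes. The largest of these was HORVU3Hr1G056200, annotated mitogen-activated protein kinase 18, at 115, 206, 199 and 146 CPM in Bowman W5.0 and 108, 109, 108 and 92.8 CPM in mnd1.a W5.0. Its edgeR log2 fold change was -0.67 ± 0.14 (SE, adjusted p = 0.00191). The other 4 were HORVU7Hr1G082510 and HORVU3Hr1G060390, also annotated kinase 18, with -0.57 and -0.29, HORVU1Hr1G018740 (kinase 16) with -0.36 and HORVU7Hr1G070970 (kinase 12) with -0.50. The call of HORVU7Hr1G070970 was lost under 3 of 30 alternative settings, each of which left out 1 W5.0 library. All of the 5 kinases but HORVU7Hr1G082510 also had a negative line-by-stage difference from W2.0 to W5.0 past the threshold, as had 5.19% of all tested genes.

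The list of asymmetric division and guard cell fate held 16 genes, all tested; 0 passed before W5.0, when 3 were higher and 4 lower, against 15.0% and 15.2% of all tested genes, with a median log2 fold change of 0.12. Both genes annotated Protein SCARECROW 1, a GRAS factor that orients asymmetric divisions in the Arabidopsis root, were higher in mnd1.a. HORVU4Hr1G024020 stood at 7.71, 5.69, 7.32 and 6.18 CPM in Bowman W5.0 and at 9.78, 12.7, 11.7 and 11.2 CPM in mnd1.a W5.0, with an edgeR log2 fold change of 0.75 ± 0.14 (SE, adjusted p = 0.000841). Its neighbour HORVU4Hr1G024030 had an edgeR log2 fold change of 0.56 ± 0.14 (adjusted p = 0.00507); reads may be shared between these copies. Of the genes annotated as retinoblastoma-related, regulators of entry into the cell cycle, HORVU1Hr1G023960 and HORVU1Hr1G062170 were lower at W5.0, with edgeR log2 fold changes of -0.54 ± 0.12 (adjusted p = 0.00195) and -0.33 ± 0.09 (adjusted p = 0.00692). HORVU6Hr1G068350, annotated Protein Brevis radix-like 2, was lower by the same test, with a log2 fold change of -0.54 ± 0.18 (adjusted p = 0.0311), and HORVU6Hr1G068280 of the same annotation had the same level in every library, so that these copies are 1 measurement that fills 2 of the 4 places. The remaining call was a retinoblastoma-related gene in the other direction, HORVU7Hr1G055440, higher by 0.31 ± 0.11 (edgeR log2 fold change, adjusted p = 0.0335). The calls of the Brevis radix-like genes and of HORVU7Hr1G055440 were each lost under 7 of 30 alternative settings. All of these settings left out 1 W5.0 library, and for each gene only 1 W5.0 library could be left out without losing the call. HORVU6Hr1G068280 and HORVU7Hr1G055440 were named after their values were seen. Over the 40 pathway genes outside the peptide family, 0 passed at W2.0, 2 were higher and 0 lower at W3.5, and 6 were higher and 9 lower at W5.0, where the shares of all tested genes were 15.0% and 15.2%.

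**Figure D3:**
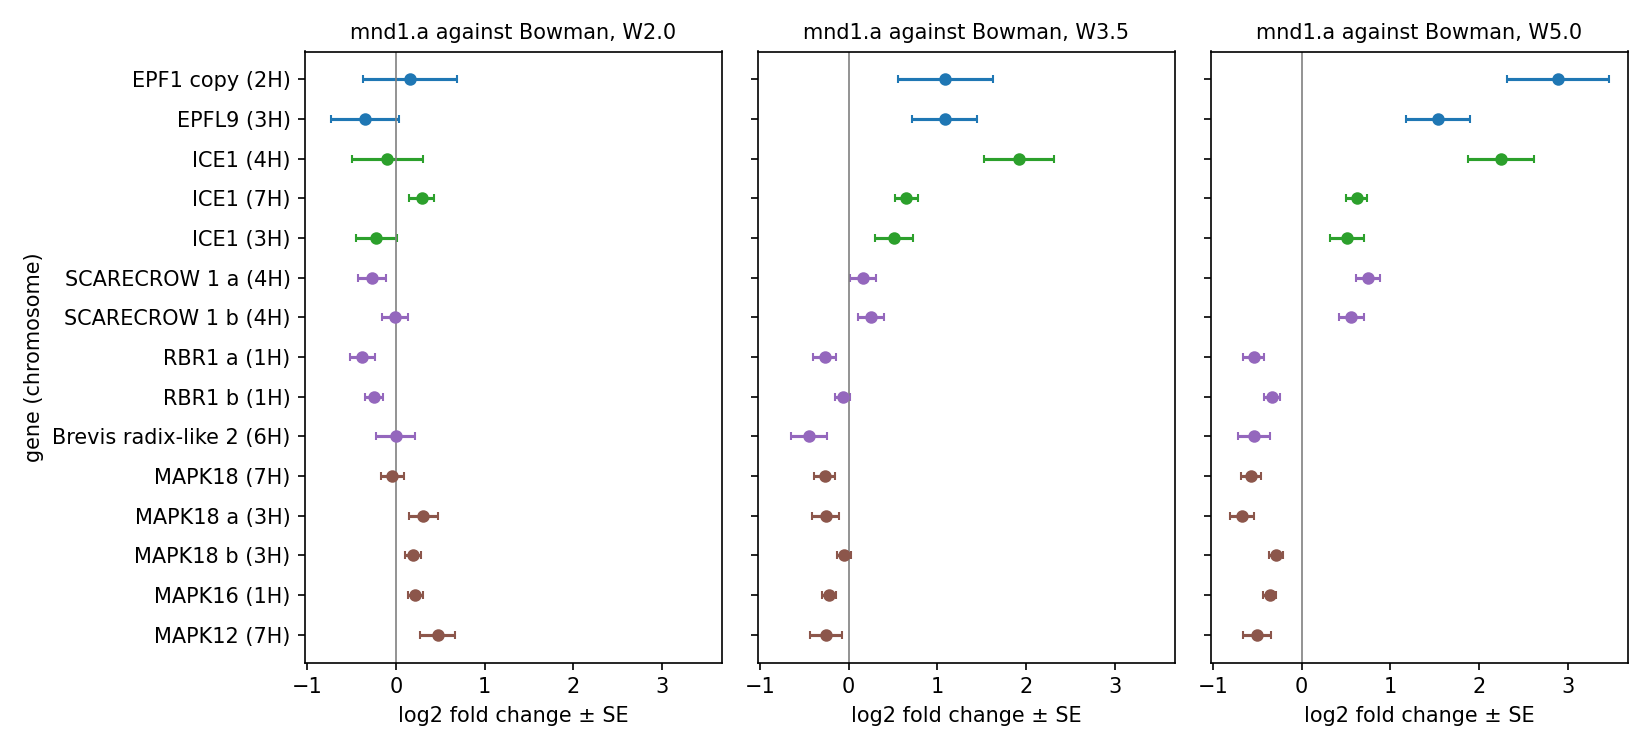
log2 fold change ± SE of mnd1.a against Bowman by stage (edgeR, 6 groups of 3 or 4 libraries) for an EPF1 copy and EPFL9 (blue), the ICE1 genes (green), named genes of asymmetric division and guard cell fate (purple) and MAP kinases (brown). The EPF genes and the ICE1 gene on 4H lie near 0 at W2.0 and reach 2.89, 1.54 and 2.25 at W5.0. The MAP kinases shown are only the 5 of 21 tested that passed as lower at W5.0. At that stage these 5 lie between -0.29 and -0.67.

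Markers of other cell types were set beside these genes. The only guard cell marker matched, a gene annotated as aluminum-activated malate transporter 12 (HORVU1Hr1G049820), lay at 2.11 to 2.88 CPM in Bowman W5.0 and at 1.36 to 3.05 CPM in mnd1.a W5.0, and did not pass at any stage. The epidermal list held genes annotated 3-ketoacyl-CoA synthase, enzymes of wax and cuticle lipid synthesis, besides a few annotated ROC6 or protodermal factor 1. It therefore reflects mainly that enzyme family. Of its 33 genes, 29 were tested. At W5.0 10 were higher and 0 lower in mnd1.a (15.0% and 15.2% of all tested genes), of which 9 are annotated 3-ketoacyl-CoA synthase and 1 is a homeobox-leucine zipper gene. The summed level of the 33 genes was 653 to 700 CPM in Bowman W5.0 and 788 to 906 CPM in mnd1.a W5.0, with 1 of the 33 at 0 in each group. At W3.5, 4 epidermal genes were higher (1.77% of all tested genes), among them HORVU7Hr1G042070 (3-ketoacyl-CoA synthase 6) with an edgeR log2 fold change of 2.55 ± 0.38 (SE, adjusted p = 0.000651) and HORVU0Hr1G013510 (homeobox-leucine zipper protein ROC6, an epidermal class IV factor) with 1.28 ± 0.32 (adjusted p = 0.0297). The other 2 were HORVU7Hr1G084610 and HORVU5Hr1G080180, both 3-ketoacyl-CoA synthases, and 1 gene was lower, HORVU2Hr1G045560, annotated protodermal factor 1. Without Bowman W3.5 replicates 2 and 4 the W3.5 calls of HORVU0Hr1G013510, HORVU7Hr1G084610 and HORVU5Hr1G080180 were lost; over all 30 alternative settings they were lost under 7, 15 and 5, and that of HORVU2Hr1G045560 under 4. These names were chosen after their values were seen. Of 25 tested vascular genes 6 were higher at W5.0 (15.0% of all tested genes), of which 5 are laccases, and 0 lower; their summed level was 143 to 225 CPM in Bowman and 192 to 242 CPM in mnd1.a, with none at 0. Of 34 tested MADS-box genes 12 were lower in mnd1.a at W3.5 (2.13% of all tested genes) and 7 at W5.0 (15.2%), with 0 higher at either stage; their summed level at W5.0 was 1072 to 1393 CPM in Bowman and 926 to 959 CPM in mnd1.a, with 0 and 1 of 40 at 0.

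Green leaf genes, such as those of the photosystems, differed between the lines chiefly at the first stage. Of 77 tested, 31 were higher in mnd1.a at W2.0 (0.497% of all tested genes), when their summed level was 294 to 509 CPM in Bowman and 860 to 1517 CPM in mnd1.a, with 1 and 2 of 95 at 0. At W3.5 0 passed in either direction. At W5.0 10 were higher and 9 lower, no more than the 15.0% and 15.2% of all tested genes, and their summed level was 1399 to 2138 CPM in Bowman and 1253 to 1906 CPM in mnd1.a. The marker lists also changed along the stages. From W2.0 to W5.0 in Bowman, 19 of 25 vascular and 16 of 29 epidermal genes were lower (27.1% of all tested genes), and 0 and 2 higher. In mnd1.a 15 and 6 were lower (10.4%), and 0 and 1 higher. Of the MADS-box genes in Bowman, 7 of 34 were lower and 21 higher. Over that span 37 of 77 green leaf genes had a negative line-by-stage difference (5.19%) and 2 a positive one (5.09%). The part of tissue composition in the EPF difference was not tested.

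In Bowman, the EPF genes were lower in libraries further along the first principal component of all tested genes, mostly across stages. This component carried 37.6% of the variance and placed the W2.0 libraries of both lines at the negative end. The 4 Bowman W3.5 libraries were spread along it, at -10.8, 62.4, 17.5 and 105.2 for replicates 1 to 4, and the EPF1 pair in the same libraries stood at 1.16, 0.200, 0.568 and 0.101 CPM. The libraries with the lowest EPF1 and EPFL9 levels at W3.5, replicates 2 and 4, were those with the highest values on the component. In Bowman W5.0 the component ran at 31.4, 120.0, 73.2 and 121.4, and EPFL9 stood at 2.24, 0.652, 1.71 and 0.618 CPM. Bowman replicates 2 and 4 were thus furthest along the component, and lowest in EPFL9, at both W3.5 and W5.0. Whether the replicate number links Bowman libraries across stages was not tested. The EPF1 pair stood at 0.158, 0.240, 0.271 and 0.153 CPM in these 4 libraries and did not fall along the component. In mnd1.a the component ran from -111.2 to -76 at W2.0, while the group means of the EPF1 pair and EPFL9 in that line stayed within 1.22 to 1.71 CPM and 3.91 to 4.03 CPM over the 3 stages. In mnd1.a W5.0 the component ran from 12.8 to 37, below the Bowman W5.0 libraries except Bowman replicate 1 at 31.4. Bowman W5.0 replicate 1 had 0.158 CPM of the EPF1 pair, against 0.975 to 2.26 CPM in mnd1.a W5.0. It had 2.24 CPM of EPFL9, against 3.18 to 5.63 CPM. This is 1 library, with 3.57 estimated counts of the EPF1 pair, close to the floor of 3 counts, so nothing is read from it. In mnd1.a W3.5 the component ran from -13.1 to -1.20, and Bowman W3.5 replicate 1 lay within that range at -10.8. This Bowman library had 1.16 CPM of the EPF1 pair, within the 0.692 to 1.74 CPM of mnd1.a W3.5. Its EPFL9 level was 3.09 CPM, below the 3.43 to 4.74 CPM of mnd1.a W3.5. The part of developmental progress within a stage in the difference was not tested.

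**Figure D4:**
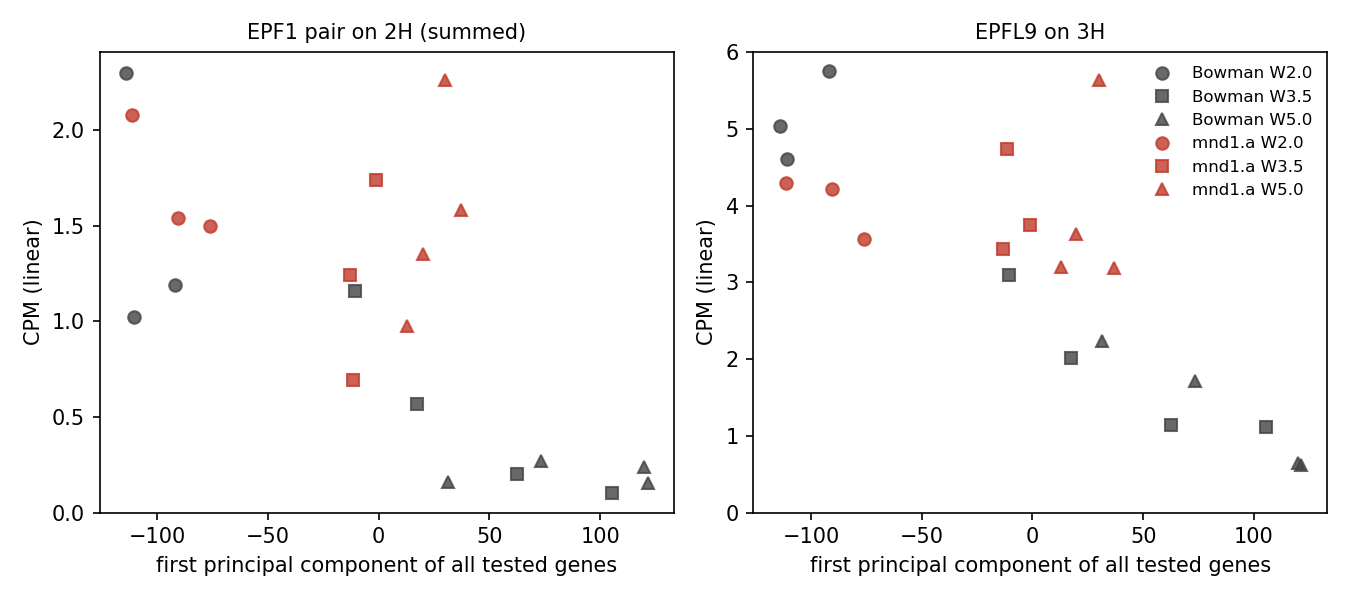
Level in CPM (linear axis) of the EPF1 pair and of EPFL9 against the first principal component of log2 CPM over all tested genes; each point is 1 of 21 libraries, with line by colour and stage by marker. Bowman libraries with values above 60 on the component have at most 0.271 CPM of the EPF1 pair and at most 1.71 CPM of EPFL9.

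Across the 21 libraries, log2 CPM of the EPF1 pair and of EPFL9 had a Pearson r of 0.866, a description over libraries that share line and stage. This likeness was not close to the highest: 87 genes were more like the EPF1 pair than EPFL9 was, and 279 were more like EPFL9 than the EPF1 pair was. The 5 genes most like the EPF1 pair, with r between 0.916 and 0.934, were 2 genes of protein kinases (HORVU5Hr1G059030 and HORVU7Hr1G089510), a glycerol-3-phosphate acyltransferase 6 (HORVU1Hr1G032150), a harpin-induced protein (HORVU1Hr1G083950) and a non-specific lipid transfer protein (HORVU6Hr1G077890). Glycerol-3-phosphate acyltransferase 6 makes cutin precursors in Arabidopsis. The 5 most like EPFL9, with r between 0.940 and 0.945, were genes annotated DUF617 (HORVU7Hr1G047060), GATA transcription factor 20 (HORVU3Hr1G059870), DUF538 (HORVU4Hr1G005320), RNA-binding protein 1 (HORVU4Hr1G057110) and fatty acyl-CoA reductase 1 (HORVU7Hr1G059000), the last an enzyme that makes fatty alcohols. A Pearson r above 0.8 was reached by 518 genes with the EPF1 pair and by 1043 genes with EPFL9, of 21130, so that many genes shared this course. With Spearman rho in place of Pearson r, 0 of the 5 remained among the 5 most like either gene.

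Around both loci, genes past the threshold were found mainly at W5.0, as among all tested genes, of which 15.0% were higher and 15.2% lower at that stage. Within 2 Mb of the EPF1 pair 38 genes were tested; 0 passed at W2.0 or W3.5, and at W5.0 10 were higher and 4 lower, which is 36.8% of them. Of the higher genes 4 are N-alpha-acetyltransferase 11 copies whose counts differed by at most 1% in every library; counted once, they leave 7 higher and 4 lower of 35, or 31.4%. The nearest of those past the threshold were HORVU2Hr1G116150 (RNA-binding protein 1) and HORVU2Hr1G116160 (undescribed), both 379 kb away, with edgeR log2 fold changes of 0.43 (adjusted p = 0.00561) and 0.28 (adjusted p = 0.0494); the second call was lost under 17 of 30 alternative settings. HORVU2Hr1G116200, undescribed and 588 kb away, was lower by 1.04 on the log2 scale (-1.04, edgeR adjusted p = 6.12e-05). HORVU2Hr1G115850, a pentatricopeptide repeat gene, and HORVU2Hr1G116250, an epoxide hydrolase, were higher, with log2 fold changes of 0.97 and 1.34. Within 2 Mb of EPFL9 39 genes were tested; 0 passed at W2.0 and 1 at W3.5 (HORVU3Hr1G092740, a desaturase, higher, named after its value was seen and lost under 6 of 30 alternative settings), and at W5.0 4 were higher and 7 lower, which is 28.2%. With a window of 5 Mb the share at W5.0 was 18.4% at EPFL9 and 35.8% at the EPF1 pair, with copies counted singly. The nearest to EPFL9 of those past the threshold were a proline--tRNA ligase (HORVU3Hr1G093050, log2 fold change 0.34), an Obg-like ATPase (HORVU3Hr1G092930, -0.64) and a glyceraldehyde-3-phosphate dehydrogenase (HORVU3Hr1G092890, -0.77). HORVU3Hr1G092860 (DUF538) had 0.89 and HORVU3Hr1G093260 (DUF506) had -2.56. The calls of HORVU3Hr1G093050 and HORVU3Hr1G092860 were lost under 3 and 4 of 30 alternative settings.

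**Figure D5:**
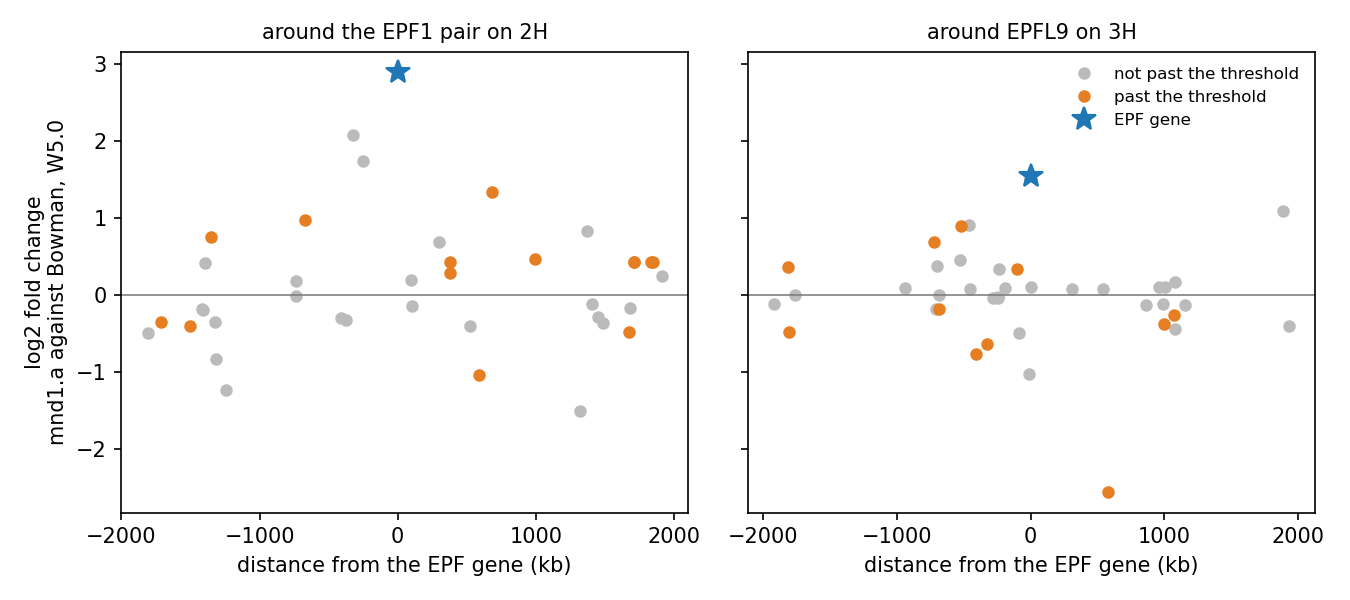
log2 fold change of mnd1.a against Bowman at W5.0 for tested genes within 2 Mb of the EPF1 pair on chromosome 2H (38 genes) and of EPFL9 on chromosome 3H (39 genes), by distance in kb; orange points passed the threshold, and the star is the EPF gene. Higher and lower genes lie on both sides of each locus, 10 and 4 of them past the threshold at the EPF1 pair and 4 and 7 at EPFL9.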

How the data were processed

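The deposited table gives 1 transcript for each of 24318 genes. Its estimated counts were made by the authors with Salmon, per the submitters' processing notes, on the annotation named in the file header; the sources used here name neither the version nor the build. Of these values 94.8% were not whole, and all were rounded for the tests. The authors' deposited table also holds log2 fold changes and adjusted p-values; 21 deposited columns of log2 CPM were not used, nor was 1 sample of another cultivar. Columns headed W3.0 were read as W3.5, as the labels have it.

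Genes passing filterByExpr (minimum count 10, minimum total 15; 21132 kept, 3186 removed) were scaled by TMM (factors 0.902 to 1.08) and tested with edgeR 4.0.16 in R 4.3.3 (robust quasi-likelihood, Benjamini-Hochberg). CPM used TMM-scaled library sizes, and the floor is 3 counts. Alternatives used DESeq2 1.42.0 and limma 3.58.1. The floor and the interval of the EPF1 ratio cover counting error only. SDs are between libraries. Each SE was derived as the absolute log2 fold change divided by the square root of the quasi-likelihood F statistic. It covers spread between libraries and counting error, and can be unreliable where the fold change is very small. The genes and all lists were chosen with earlier results of these data known; lists are words in the annotation. Genes named are the members, the family, up to 5 called genes per pathway list by adjusted p, the 5 most alike and up to 5 called neighbours per locus by distance.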

Additional observations from a re-analysis of the deposited data

Results flagged for a closer look

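Over the groups of 4 libraries, 55 combinations of a gene or gene pair with a group were examined for a library apart from the other 3. Such a library was found in 4 of the 55, where chance gives about 1 in 20. The combinations share the same libraries and are not independent, so nothing is read from the count. In mnd1.a W5.0 replicate 2, the EPFL9 pair on 7H stood high at 0.807 CPM, MND1 (HORVU7Hr1G113480) low at 2.41 CPM and HORVU6Hr1G068350 low at 5.60 CPM. In mnd1.a W5.0 replicate 4, HORVU3Hr1G056200 stood low at 92.8 CPM.

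The difference between the lines changed from W2.0 to W5.0, by the edgeR test of that change itself, for 11 of the genes named outside the EPF genes and the genes picked for likeness to them. These 11 were named because they passed a comparison of the lines at W3.5 or W5.0, so such a change is partly built in. Of all tested genes, 5.09% had a positive and 5.19% a negative change past the threshold. Nothing is read from the count of 11. The log2 change was 2.35 for the ICE1 gene HORVU4Hr1G008480 and 1.02 for the SCARECROW 1 gene HORVU4Hr1G024020. It was -0.58 for the MAP kinase HORVU1Hr1G018740, -0.98 for HORVU3Hr1G056200, -0.48 for HORVU3Hr1G060390 and -0.98 for HORVU7Hr1G070970. The 3-ketoacyl-CoA synthase 6 gene HORVU7Hr1G042070 had 1.77. Among the neighbours of the EPF1 pair it was 1.06 for HORVU2Hr1G115850, 1.39 for HORVU2Hr1G116250 and -0.93 for HORVU2Hr1G116200, and near EPFL9 it was -0.57 for HORVU3Hr1G092930. The last 2 also changed from W3.5 to W5.0 by the same test, by -0.93 and -0.83. The EPF genes and those like them were chosen on these counts and are left out of this count.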

How the results depend on the processing

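The W5.0 difference of an EPF1 copy lay between 2.64 and 3.08 (log2) over 29 alternatives and that of EPFL9 between 1.31 and 1.96 over 30, a description, since the genes were chosen on these counts; in the fits with only 2 groups the EPF1 copies fell under the count filter at W3.5 and W5.0 and gave no value. Without Bowman W3.5 replicates 2 and 4 the W3.5 difference was 0.48 for an EPF1 copy and 0.65 for EPFL9. The W2.0 difference of an EPF1 copy ran from -0.05 to 0.57. The Bowman step from W2.0 to W3.5 of an EPF1 copy lost its call without 1 library in 15 of 21 cases and under 2 of the other settings. The line-by-stage change from W2.0 to W5.0 lost its call without 1 library in 7 of 21 cases for an EPF1 copy and in 6 of 21 for EPFL9. EPFL9 passed at W3.5 in 1 case, without Bowman W3.5 replicate 1.

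Of 2362 recomputed values, 2207 kept their side of the threshold or moved by less than the spread between libraries, 21 moved by more, 134 named calls were lost and no called value changed direction. Over all genes, edgeR called 167 at W2.0 and 826 at W3.5, against 325 and 1487 with DESeq2. At W3.5 the count was 94 with only the 2 groups compared and 344 without Bowman W3.5 replicates 2 and 4; leaving out 1 library gave 89 to 232 at W2.0, 265 to 2273 at W3.5 and 4570 to 7029 at W5.0. The 2 pathway genes called at W3.5 became 0 with only the 2 groups compared and 0 without those Bowman replicates, and 2 to 5 without 1 library. With a window of 5 Mb, the share of called neighbours was 1.05% for the EPF1 pair at W3.5, and 1.15% at W2.0 and 18.4% at W5.0 for EPFL9. For the EPF1 pair at W5.0 it was 35.8%, against 36.8% within 2 Mb. With Spearman rho, 0 of the 5 genes most like the EPF1 pair and 0 of the 5 most like EPFL9 were kept. The cause of these shifts was not tested. The labels give no replicate numbers. Those in the count headers showed no pairing of the lines within a stage. Deviations of same-numbered libraries from their group means correlated between -0.17 and 0.18, above 0.1 in 2 of 10 pairs. Of the 10 pairs, 2 were best matches both ways. Same-numbered libraries of different stages were not compared in this way. A fit with that number as a replicate block, chosen after seeing the data, called 6844 genes at the last stage, where the fit without it called 6381, 1044 at the middle stage and 172 at the first. Under it the calls of HORVU3Hr1G096460 and HORVU2Hr1G116160 at W5.0, and of HORVU7Hr1G084610 and HORVU3Hr1G059870 at W3.5, were lost. The floor of 3 counts limits the EPF1 genes.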
